A study of Mus musculus with 18 samples.

Results

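The genes examined were 10 members of the BCL2 family, Bcl2, Bcl2l1, Bcl2l2, Mcl1, Bak1, Bok, Bid, Bad, Bik and Bcl2l11, out of 19259 genes on the array that RefSeq names. They were chosen by name, as the family outside Bax, Bbc3 (Puma) and Pmaip1 (Noxa), and each was found through the RefSeq accession of its array probe. All 10 were on the array, with 2 probes for Bcl2, 3 for Bcl2l11 and 1 for each of the others. The brightest probe on average stood for a gene with several, and the others were read beside it.

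BCL2 proteins decide whether the outer membrane of the mitochondrion is opened during apoptosis. Pro-survival members (Bcl2, Bcl2l1, Bcl2l2, Mcl1) hold the pore-forming effectors Bak1 and Bax in check, Bok is an effector largely independent of them, and BH3-only members (Bid, Bad, Bik, Bcl2l11, and also Bbc3 and Pmaip1) bind the pro-survival proteins or the effectors and favour opening. Once the membrane is open, cytochrome c leaves the mitochondrion and caspases are activated. Mouse embryonic stem cells are known to undergo apoptosis readily after DNA damage.

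Expression was measured with Cy3-labelled RNA on Agilent 1-colour arrays in 18 samples, 3 in each of 6 groups. ES were unirradiated primary mouse embryonic stem cells of early passage, kept on gelatin with LIF and without a feeder layer. ED were unirradiated isogenic non-stem cells obtained from them by culture without LIF, for 1 week or until stem markers were lost, for which the labels give no cell type beyond differentiated primary cells. ESRE and EDRE were the same cells 15 min after 10 Gy of ionizing radiation, and ESRL and EDRL were taken 4 h after 10 Gy.

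A level is given throughout as the log2 processed signal of a probe minus the log2 of its array's 75th percentile, so that 0 is the brightness of that percentile. Levels of 1 probe can be compared between samples, but brightness also depends on the probe, so the levels of separate probes do not rank their genes by abundance. A difference is a difference of group means on this log2 scale, with its standard error (SE) from limma. A gene passed the test where limma's Benjamini-Hochberg adjusted p over all probes tested was under 0.05 and the difference was over 1 in size, which is a change of more than 2-fold. Probes entered the test when 1 or more of the groups compared had them well above background on each of its 3 arrays. Precision is limited by the number of arrays. The word slide stands below for arrays with 1 shared scan time. The paper's scan setting is for slides of 1 array, so these arrays are not known to share a physical slide.

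Replicates 2 and 3 of EDRE stood apart from the other arrays. The 75th percentile of their signal was 875 and 1155, against 1952 or more on every other array, and the scanner software marked 24.4% and 23.8% of their spots as outliers, against 3.33% to 11.1% elsewhere. Outlier spots were left out, which removed 7 and 8 of the 10 members from these arrays. The EDRE means of Bcl2, Bcl2l1, Bcl2l2, Mcl1, Bok, Bid and Bcl2l11 therefore rest on replicate 1 alone, and that of Bak1 on replicates 1 and 2. Replicate 1 of ESRL also stood apart, with a 75th percentile of 1952 against 2806 to 4268 on the 15 arrays other than these 3, and with 63.3% of probes well above background. The share was 49.5% and 55.5% on EDRE replicates 2 and 3, and 70.7% to 86.1% on the 15 others.

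All 10 members gave a signal well above background on the 3 unirradiated ES arrays and on the 3 ED arrays. Across the 18 arrays this held for every member except Bad, which was dim on replicate 1 of ESRL, and Bik, which was dim on replicates 2 and 3 of EDRE and of EDRL. None of the members' spots was saturated.

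**Figure D1:**
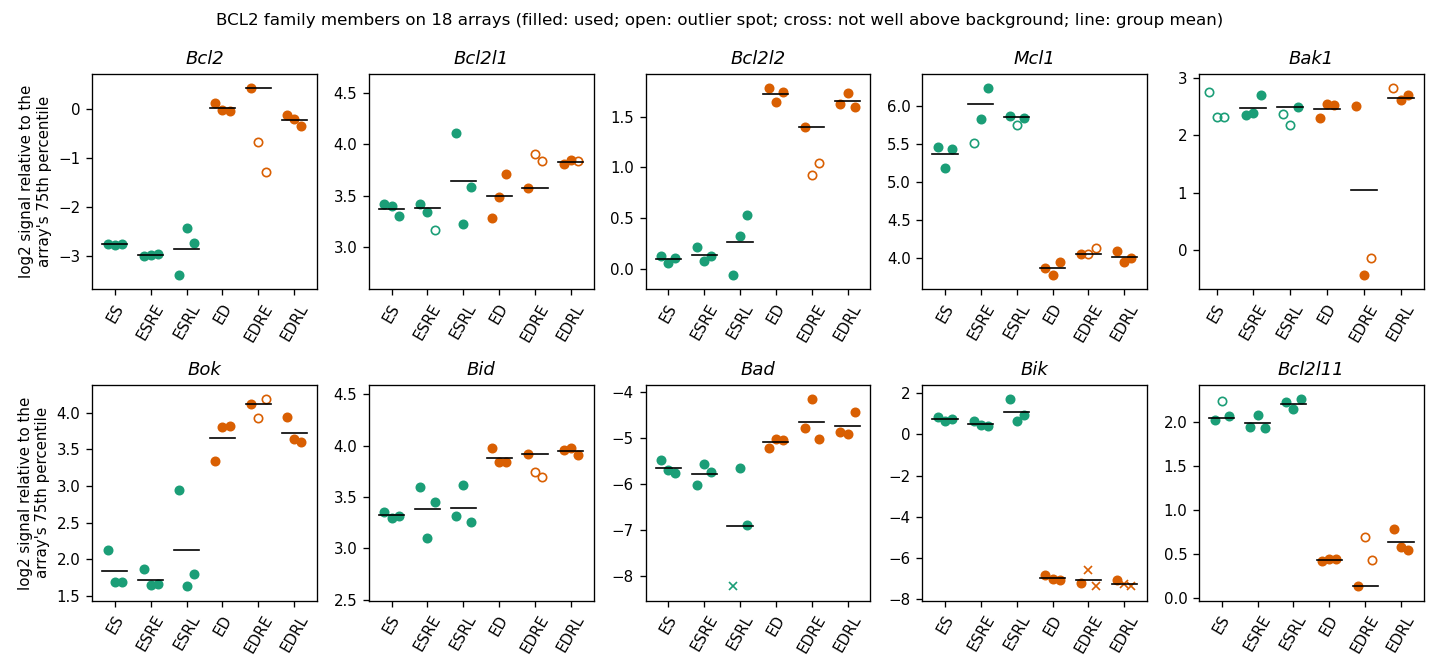
Level of each of the 10 members on the 18 arrays, as log2 signal relative to the array's 75th percentile, with the 6 groups on the x axis and 1 point per array (filled for values used, open for outlier spots left out, a cross for signals not well above background) and a line at the group mean of the values used. Bik lies near 0.75 in ES and near −6.97 in ED, Bcl2 near −2.76 in ES and 0.01 in ED, and most EDRE panels hold 1 filled point.

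Most stem cell markers were lower in the ED cells. Of 9 markers, 8 were tested in ED against ES and 7 fell, among them Dppa5a (−13.14), Pou5f1 or Oct4 (−10.29) and Nanog (−8.85). Klf4, at a difference of 0.05, did not pass the test, and Zfp42 was dim on all 3 ED arrays, meaning not well above background. The signal of the 9 marker probes, summed on each array in multiples of the 75th percentile, was 523 to 532 on the ES arrays and 17.5 to 23.1 on the ED arrays. The largest part of the sum came from the Dppa5a probe in ES and the Klf4 probe in ED, which describes the signal and not how abundant these RNAs were.

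Markers of other cell types moved at the same time. Of 21 such markers, 17 were tested, 5 were higher in ED and 10 lower. The mesenchymal genes Col1a2 (5.91), Col1a1 (5.55), Vim (2.67, not with slide as a random block) and Acta2 (1.13) were higher, and the summed signal of 6 mesenchymal marker probes was 60.5 to 73.3 on the ES arrays, with the largest part from Fn1, and 360 to 456 on the ED arrays, with the largest part from Vim. Thy1, also on that list, was at least 400-fold lower in ED, where it was dim. Trophectoderm markers summed to 13.1 to 14.9 in ES and 0.115 to 0.162 in ED, with Cdx2 dim in ED. The share of cell types in each culture was not measured, so fewer cells of a type and less RNA per cell cannot be told apart for any gene below, and the part of these markers in the members' differences was not tested.

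The comparison of ED with ES asks how the family differs before any radiation. Of the 9 members tested, 6 passed: Bcl2, Bcl2l2 and Bok were higher in ED, and Mcl1, Bik and Bcl2l11 were lower. Pro-survival genes stood on both sides, and of the BH3-only genes Bik and Bcl2l11 were lower while Bid and Bad did not pass. Over all 28636 probes tested, 41.7% passed, 15.1% higher and 26.6% lower, so a large share of the array differed between the cell types. The median difference of the tested members was 0.56, against −0.19 over all probes tested.

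The promoters of members that passed between ED and ES are shown, since the GC box, a common promoter element, was the motif most often found in the family. The promoter set used, from RefSeq (GRCm38.p6), held sequences from 250 bases before to 50 bases after a start for 9 of the 10 members. These had 13 entries in all. The set held none for Bik, whose promoter was therefore not searched. The GC box was searched as GGGCGG on both strands and is shown in capitals (CCGCCC where it lies on the other strand). The first 3 sequences belong to genes higher in ED and the last 2 to genes lower in ED, each on the gene's own strand.
Bcl2, chr1:106714241-106714540, minus strand: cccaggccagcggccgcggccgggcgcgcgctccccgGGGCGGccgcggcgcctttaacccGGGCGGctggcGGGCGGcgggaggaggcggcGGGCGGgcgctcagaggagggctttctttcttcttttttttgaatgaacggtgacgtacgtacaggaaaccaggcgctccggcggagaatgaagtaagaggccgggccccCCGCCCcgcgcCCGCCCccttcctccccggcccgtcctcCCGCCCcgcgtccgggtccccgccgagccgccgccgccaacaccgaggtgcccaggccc
Bcl2l2, chr14:54883175-54883474, plus strand: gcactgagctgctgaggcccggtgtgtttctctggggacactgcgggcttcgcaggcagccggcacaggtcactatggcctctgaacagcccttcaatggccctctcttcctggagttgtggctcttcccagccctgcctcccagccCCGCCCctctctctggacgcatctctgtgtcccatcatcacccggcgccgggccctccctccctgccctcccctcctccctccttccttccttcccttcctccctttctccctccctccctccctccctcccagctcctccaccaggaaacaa
Bok, chr1:93685325-93685624, plus strand: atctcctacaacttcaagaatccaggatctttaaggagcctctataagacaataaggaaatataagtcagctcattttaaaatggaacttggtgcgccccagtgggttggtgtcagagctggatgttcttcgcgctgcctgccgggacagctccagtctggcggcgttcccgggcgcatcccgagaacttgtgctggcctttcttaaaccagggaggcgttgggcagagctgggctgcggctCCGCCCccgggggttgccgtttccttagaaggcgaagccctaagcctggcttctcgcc
Mcl1, chr3:95658471-95658770, plus strand: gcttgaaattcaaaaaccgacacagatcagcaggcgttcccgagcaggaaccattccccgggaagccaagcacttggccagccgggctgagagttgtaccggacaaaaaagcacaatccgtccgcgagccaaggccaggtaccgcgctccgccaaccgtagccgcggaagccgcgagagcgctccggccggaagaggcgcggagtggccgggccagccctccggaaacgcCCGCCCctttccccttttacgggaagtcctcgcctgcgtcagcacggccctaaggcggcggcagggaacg
Bcl2l11, first of 2 entries, chr2:128125788-128126087, plus strand: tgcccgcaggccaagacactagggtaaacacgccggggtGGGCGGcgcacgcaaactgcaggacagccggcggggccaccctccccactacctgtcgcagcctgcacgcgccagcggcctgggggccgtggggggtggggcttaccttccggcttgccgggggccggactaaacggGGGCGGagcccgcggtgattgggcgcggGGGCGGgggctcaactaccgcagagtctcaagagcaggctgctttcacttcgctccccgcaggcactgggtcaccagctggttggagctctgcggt

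The Bcl2 promoter held 7 GC boxes, the Bcl2l11 entry 3, and those of Bcl2l2, Bok and Mcl1 1 each. Of the 13 entries of the family, 8 held at least 1 GC box, against 35.7% of 32851 mouse promoters of the same length. CCAAT, on either strand, was in 3 entries, 1 of Bad and both of Bcl2l11, against 37.4% of all promoters. TATAAA (13.6% of all promoters), the E-box CACGTG (7.15%) and the 10-letter p53 half-site RRRCWWGYYY (8.36%) were in 0 of the 13. These were also searched on both strands, with R for A or G, W for A or T and Y for C or T. The sequences shown were 56.3% to 76.0% G or C, against a median of 52.7% over all promoters, and genes on both sides of the comparison held GC boxes.

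Bcl2, the founding pro-survival gene, was at −2.76, −2.77 and −2.76 on the 3 ES arrays and at 0.13, −0.03 and −0.05 on the 3 ED arrays. All 3 ED values lay above all 3 ES values. Its difference of 2.78 (SE 0.20, adjusted p = 1.02e-07) is 6.86-fold. The second Bcl2 probe was at −2.57, −2.58 and −2.67 in ES and −0.39, −0.41 and −0.33 in ED, a difference of 2.23 (SE 0.21, adjusted p = 2.79e-07).

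Bcl2l2 (Bcl-w), another pro-survival gene, was at 0.13, 0.06 and 0.10 in ES and at 1.78, 1.65 and 1.74 in ED. The groups were well apart, and the difference of 1.62 (SE 0.16, adjusted p = 1.42e-06) is 3.08-fold. Mcl1, a short-lived pro-survival protein that early embryos need, went the other way. It was at 5.45, 5.19 and 5.44 in ES and at 3.86, 3.77 and 3.94 in ED, and fell by 1.50 (SE 0.16, adjusted p = 1.25e-05). Bcl2l1, whose long form Bcl-xL is pro-survival, was at 3.42, 3.40 and 3.30 in ES and 3.28, 3.49 and 3.71 in ED. These groups overlapped, and the difference of 0.12 (95% interval −0.36 to 0.61, adjusted p = 0.7) did not pass.

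Among the effectors, Bok was at 2.12, 1.69 and 1.69 in ES and at 3.33, 3.80 and 3.82 in ED. The lowest ED value lay above the highest ES value, with a difference of 1.81 (SE 0.30, adjusted p = 2e-04). Bak1, which together with Bax forms the main mitochondrial pore, could not be tested, because its spot was marked as an outlier on all 3 ES arrays. With the outlier spots kept, Bak1 was at 2.74, 2.32 and 2.32 in ES and at 2.29, 2.55 and 2.53 in ED, a difference of −0.01 (adjusted p = 0.994).

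Bik, a BH3-only gene, had the largest difference among the 9 members tested. It was at 0.83, 0.67 and 0.74 in ES and at −6.83, −7.03 and −7.05 in ED, where it was still well above background on all 3 arrays. The dimmest probe that was well above background lay at −7.83, −7.35 and −7.29 on these ED arrays, so Bik was near the floor there. It fell by 7.72 (SE 0.25, adjusted p = 3.08e-12), a 211-fold difference whose size is uncertain because the ED values are so low. Over 13 alternatives the difference ran from −7.72 to −5.97, and it passed in each. Bcl2l11 (Bim), which binds all pro-survival members, was at 2.03 and 2.07 in ES, with an outlier spot of 2.25 left out on replicate 2, and at 0.42, 0.44 and 0.44 in ED. It fell by 1.62 (SE 0.15, adjusted p = 1.73e-06), and its other probes fell by 1.54 and 1.84, so that all 3 probes passed in the same direction.

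Bid, which caspase-8 cleaves into its active form, was at 3.35, 3.30 and 3.31 in ES and at 3.97, 3.84 and 3.84 in ED. The groups did not overlap and the adjusted p was 0.00901, but the difference of 0.56 (SE 0.16) was under the 2-fold limit. Bad, whose activity is held down by phosphorylation and 14-3-3 binding, was at −5.49, −5.69 and −5.77 in ES and at −5.21, −5.02 and −5.05 in ED, a difference of 0.56 (SE 0.45, adjusted p = 0.329). Between ED and ES, 7 of the 8 members with all 6 arrays usable did not overlap, against 71.2% of all probes so measured. Bcl2l1 was the member whose groups overlapped.

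**Figure D2:**
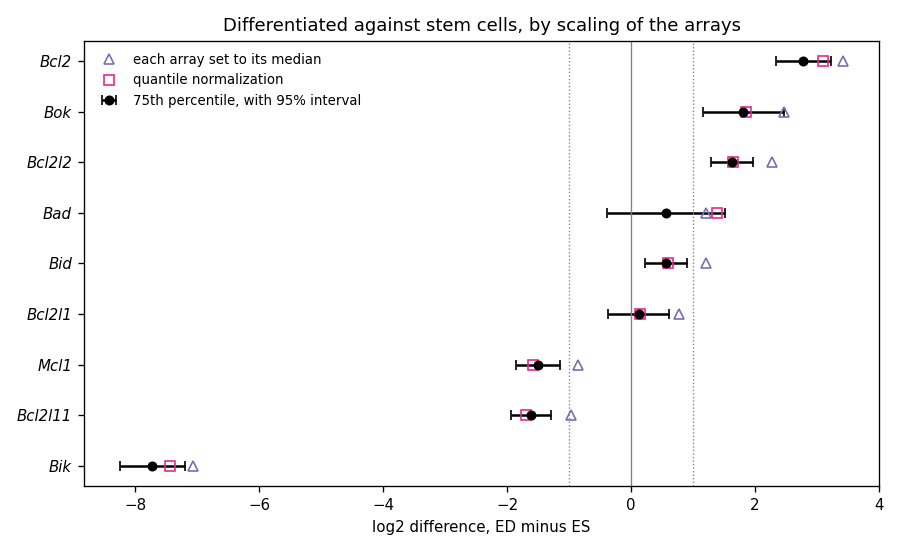
Log2 difference of ED minus ES for the 9 members tested, with 95% intervals from limma for the scaling to the 75th percentile and the same differences after scaling each array to its median and after quantile normalization; dotted lines mark differences of −1 and 1. Bik lies far to the left at −7.72, Bcl2 to the right at 2.78, and the median scaling moves every member to the right, Mcl1 to −0.85 and Bcl2l11 to −0.97.

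The count of 6 depended on the scaling for its direction. Setting each array to its median moved the median of all probes from −0.19 to 0.46 and the split of probes that passed from 4324 higher and 7609 lower to 7727 and 5305 (6175 and 5864 after quantile normalization), and among the members it gave 5 higher and 1 lower. Bid and Bad, both at 1.21, then passed, while Mcl1 at −0.85 (adjusted p = 0.00184) and Bcl2l11 at −0.97 (adjusted p = 0.00109) came under the 2-fold limit. Quantile normalization gave 4 higher and 3 lower, with Bad added at 1.39. No slide, taken as arrays with 1 scan time, held ED together with ES. Slide 1 held the 3 ED arrays and 1 array of irradiated stem cells, replicate 3 of ESRE, on which Bcl2 was at −2.96, Bcl2l2 at 0.13, Bok at 1.66, Mcl1 at 6.23, Bik at 0.40 and Bcl2l11 at 1.94. Each of these 6 values lay on the ES side of all 3 ED values of the same slide, a comparison with 1 array that was not tested. With slide as a random block the same 6 members passed, and over all probes 2306 were higher and 3761 lower. Since no slide held both groups, slide and cell type cannot be told apart in ED against ES, with this block or without it.

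Of 15 other genes of the family, 13 were tested and 5 passed, all of them lower in ED. Pmaip1 (Noxa), a BH3-only gene that p53 activates, was dim on all 3 ED arrays and had 1 usable ES array. It lay at least 1033-fold lower in ED by that array, but its call was lost when every array of both groups had to be well above background. Bcl2l14 (−4.01), the BH3-only genes Bmf (−3.69) and Hrk (−3.19), and Bcl2l13 (−1.21) were the others. Bcl2l13 did not pass with the arrays set to their medians, and neither Hrk nor Bcl2l13 passed with slide as a random block. Bax was between 3.91 and 4.10 in ES and between 2.80 and 3.43 in ED, a difference of −0.90 (adjusted p = 0.0325) that stayed under the 2-fold limit. Bbc3 (Puma) was not well above background in either group.

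Genes downstream of the mitochondrion and genes whose proteins bind or modify BCL2 proteins were read beside the members. Among genes of the apoptosome and the caspases, Casp8, which cleaves Bid, was higher in ED by 2.62 (adjusted p = 0.0055) and Casp2 by 1.17 (adjusted p = 2.19e-05). Of 8 tested genes for proteins released from mitochondria and for inhibitors of apoptosis, Endog passed, and fell by 1.32 (adjusted p = 0.0103). Of 12 partner genes, Ppp3ca, a calcineurin subunit that acts on Bad, was higher by 2.16 and Vdac3 by 1.15. The ubiquitin ligase genes Fbxw7 and Huwe1, both of which act on Mcl1 protein, differed by −1.52 and −1.03, and Usp9x, which deubiquitinates Mcl1, by −1.16. Scaled to the array medians, Endog, Fbxw7, Huwe1 and Usp9x no longer passed, and with slide as a random block these 4 and Vdac3 did not pass.

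**Figure D3:**
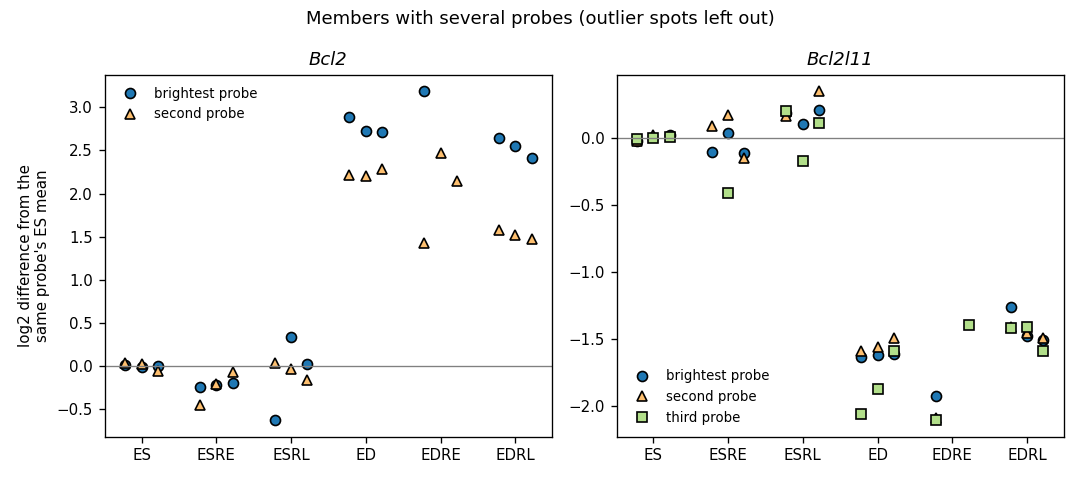
Level of each probe of Bcl2 and Bcl2l11 on the arrays, as log2 difference from the same probe's mean over the ES arrays, with the 6 groups on the x axis and 1 point per array (outlier spots left out). Both Bcl2 probes lie above 0 in every ED, EDRE and EDRL array and all 3 Bcl2l11 probes lie below 0 there.

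The first irradiation comparison, ESRE against ES, asks what 15 min after 10 Gy had altered in stem cells. Both groups were grown under the same conditions, and differed by radiation and by slide. By limma 0 of the 9 members tested passed, against 0.463% of 27875 probes. The probes that passed, 85 higher and 44 lower, were 69 and 7 with normexp background correction. They were 329 and 211 in the fit to the compared groups alone, and 22 and 7 without ES replicate 2. At an unadjusted p under 0.05 there was 1 member by limma, Mcl1, against 9.45% of probes, and 2 by the t-test of the study's methods, against 23.5%, with 0 members after Benjamini-Hochberg adjustment. The median difference of the members was −0.06 and that of all probes −0.08.

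Mcl1 was at 5.83 and 6.23 on ESRE replicates 2 and 3, with an outlier spot of 5.52 left out on replicate 1, and at 5.45, 5.19 and 5.44 in ES. The ESRE values used lay above the ES values, but the difference of 0.67 (SE 0.18, adjusted p = 0.169) did not pass. The ESRE mean of Bcl2 was −2.98, with an SD of 0.02 over 3 arrays that all lay below the ES values, with a difference of −0.21 (95% interval −0.66 to 0.23). Bik was at 0.66, 0.44 and 0.40, also below its ES values, with a difference of −0.25 (95% interval −0.77 to 0.28). Bcl2 and Bik were the members without overlap, 2 of the 6 measured on all arrays of both groups, against 35% of all probes so measured. The remaining tested members, Bcl2l1, Bcl2l2, Bok, Bid, Bad and Bcl2l11, differed by −0.12 to 0.06. The other probes of Bcl2l11 differed by 0.04 and −0.41, the latter with 1 usable ESRE array. Bak1 was not tested for want of ES values, and stood at 2.35, 2.38 and 2.71 in ESRE.

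At 4 h, ESRL against ES, again 0 of 9 members passed by limma, against 7.03% of 27966 probes. At an unadjusted p under 0.05 there were 2 members by limma, Mcl1 and Bad, against 25.0% of probes, and 2 by the methods' t-test, against 18%, with 0 members after Benjamini-Hochberg adjustment. With each array set to its median there were 6 by limma, against 28.4%. The ES arrays are the same as those of the 15 min comparison, so both share their controls. Of the probes that passed, 193 were higher and 1772 lower. With each array set to its median the split was 597 higher and 1031 lower, with quantile normalization 344 and 628, and the median of all probes went from −0.16 to 0.15. The members' own median was 0.17, and the count of members that passed was 0 under these scalings as well. For all probes, normexp left a split of 32 and 47, and the methods' t-test 7 and 7. Dropping ES replicate 2 gave 98 and 736, and dropping ESRL replicate 2 gave 310 and 3841. The share of 7.03% set beside the members therefore depends on the setting and on the arrays kept.

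Mcl1 was at 5.86 and 5.85 on ESRL replicates 1 and 3, with an outlier spot of 5.75 left out on replicate 2, all above the 3 ES values. The difference of 0.49 (SE 0.18, adjusted p = 0.113) did not pass. Over 13 alternatives it ran from 0.25 to 0.94, with adjusted p down to 0.0198, and stayed under the 2-fold limit in each. Bad was at −8.23, −5.65 and −6.89 in ESRL, where the first value was not well above background and the second lay within the ES values. Its difference of −1.27 (SE 0.45, adjusted p = 0.0917) did not pass, and its spread over the ESRL arrays, an SD of 1.29, was wide. Without ESRL replicate 2 Bad was lower by limma (a difference of −1.91, adjusted p = 0.00222), and so for this gene 1 library decides the call.

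The other members tested differed by −0.09 (Bcl2) to 0.35 (Bik). The other probes of Bcl2l11 differed by 0.26 and 0.05. In ESRL, Bcl2l1 was at 4.11, 3.22 and 3.59, Bok at 2.95, 1.63 and 1.79 and Bik at 1.70, 0.65 and 0.94. Each was highest on replicate 1, the array with the low 75th percentile. With 1 array left out the difference of Bik ran from 0.05 to 0.57. Of the 7 members measured on all arrays of both groups, 0 were without overlap, against 34.1% of all probes so measured. Among the other genes read, Bcl2a1d (−1.61, adjusted p = 0.0169) and Diablo (−1.68, adjusted p = 0.0201, with 1 ESRL array dim) passed, calls lost in 4 and 6 of 13 alternatives. Of the cell markers, Sox17 (−1.18) and Gata4 (−1.07) passed as lower, which was lost in 6 and 9 of 13, and the part of cell mixture in these values was not tested.

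In the non-stem cells the 15 min comparison, EDRE against ED, rests for 7 members on 1 array, for which the spread is taken from the other groups. By limma 0 of 10 members passed, against 4.85% of 24490 probes. At an unadjusted p under 0.05 there were 0 members by limma, against 26.0% of probes, and 1 by the methods' t-test, against 11.5%, with 0 members after Benjamini-Hochberg adjustment. Of the probes that passed, 515 were higher and 672 lower, against 1430 and 533 with each array set to its median, which moved the median of all probes from 0.03 to 0.29, and 367 and 833 with quantile normalization. The members' median was 0.06.

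Bak1 was at 2.29, 2.55 and 2.53 in ED and at 2.51 and −0.43 on EDRE replicates 1 and 2, with an outlier spot of −0.13 left out on replicate 3. Of the EDRE values used, 1 lay among the ED values and 1 far below them, and the difference of −1.41 (SE 0.67, adjusted p = 0.23) did not pass. Without EDRE replicates 2 and 3 the difference of Bak1 was 0.05 (adjusted p = 0.954), and without EDRE replicate 1 it was −2.88 (adjusted p = 7.64e-05), so the array kept decides this value. With outlier spots kept it was −1.81 (adjusted p = 0.0394).

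Bcl2 was at 0.42 on EDRE replicate 1, above its 3 ED values, and its outlier spots on replicates 2 and 3 read −0.69 and −1.30, below them. The difference from the array kept was 0.41 (95% interval −0.21 to 1.02), and with outlier spots kept it was −0.53. The second probe of Bcl2, without outlier spots, was at −1.18, −0.14 and −0.47 and differed by −0.22. Mcl1 was at 4.05 and Bok at 4.12 on replicate 1, with differences of 0.19 and 0.47. Bad was at −4.77, −4.16 and −5.02 and differed by 0.44, and without EDRE 2 and 3 by 0.32. The other members, Bcl2l1, Bcl2l2, Bid, Bik and Bcl2l11, differed by −0.32 to 0.08. The other probes of Bcl2l11 differed by −0.54 and 0.09. Of the 2 members measured on all arrays, Bad and Bik, 0 were without overlap, against 25.4% of all probes so measured.

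**Figure D4:**
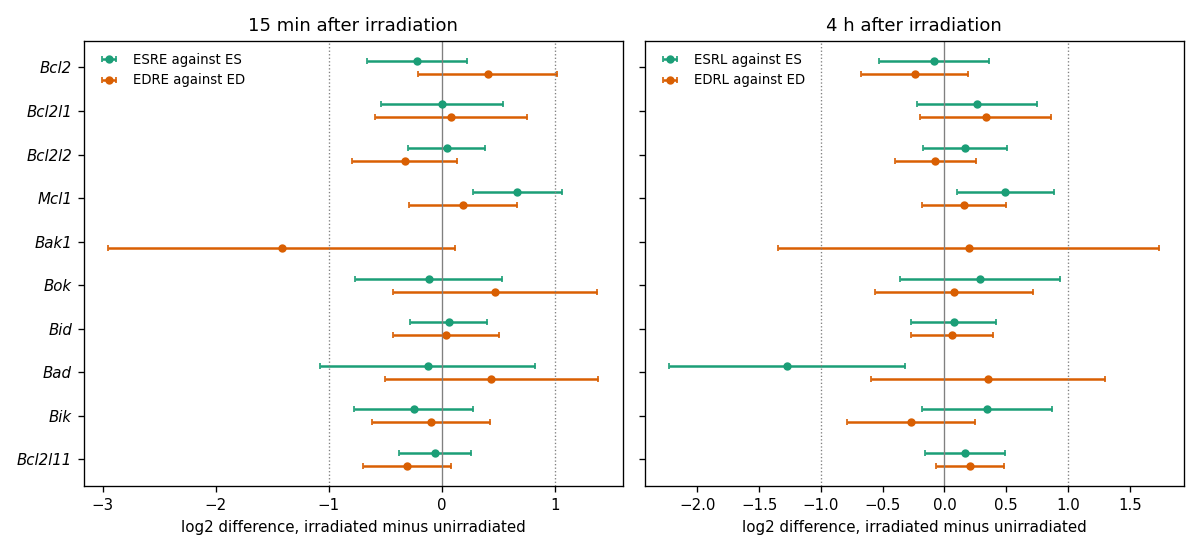
Log2 difference after 10 Gy against the unirradiated cells of the same type for each member, in 1 panel for 15 min and 1 for 4 h, with 95% intervals from limma, ES-derived cells in green and ED-derived in orange. Every interval takes in 0 except those of Mcl1 in stem cells at both times (0.67 and 0.49) and of Bad in stem cells at 4 h (−1.27), none of which passed.

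The 4 h comparison, EDRL against ED, shares its ED arrays with the 15 min comparison and had 3 usable arrays per group for most members. Among the 10 members tested by limma 0 passed, against 1.61% of 25412 probes, of which 350 were higher and 60 lower. At an unadjusted p under 0.05 there were 0 members by limma, against 13.9% of probes, and 1 by the methods' t-test, against 31.6%, with 0 members after Benjamini-Hochberg adjustment. The members' median was 0.12 and that of all probes −0.09, which became 0.06 with each array set to its median.

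Bcl2 was at −0.13, −0.21 and −0.35 in EDRL, below its 3 ED values, and differed by −0.24 (95% interval −0.67 to 0.19). Its second probe was at −1.04, −1.09 and −1.14 against −0.39, −0.41 and −0.33 in ED, and the difference of −0.71 (SE 0.20, adjusted p = 0.0887) did not pass. Mcl1 was at 4.09, 3.95 and 4.00, above the ED values, with a difference of 0.15 (95% interval −0.18 to 0.49). Bcl2l11 was at 0.79, 0.58 and 0.55, above its ED values of 0.42 to 0.44, with a difference of 0.20 (95% interval −0.07 to 0.48). Its other probes differed by 0.10 and 0.37, and on each of them the EDRL and ED values overlapped. Bad was at −4.87, −4.91 and −4.43, above its ED values, and Bik at −7.09, −7.28 and −7.37, below its ED values and dim on replicates 2 and 3. By the brightest probe of each gene, Bcl2, Mcl1, Bad, Bik and Bcl2l11 made 5 of 8 members without overlap, against 44.6% of all probes so measured. Bcl2l1, Bcl2l2, Bak1, Bok and Bid differed by −0.07 to 0.33.

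Bax, Bbc3 and Pmaip1 were read in the same comparisons. Bax was higher in EDRE than in ED by 1.14 (SE 0.32, adjusted p = 0.0479), with 3 EDRE values from 3.45 to 4.78, all above the ED values. This call was lost in 15 of the 18 fits that left out 1 array, and without EDRE 2 and 3 the difference was 0.35 (adjusted p = 0.776). Bax differed by 0.86 in EDRL (adjusted p = 0.225), and against ES by −0.03 at 15 min and 0.29 at 4 h. Bbc3 and Pmaip1 were dim on all 3 ED arrays and well above background on 1 EDRE array and 2 EDRL arrays each, so no fold is given and neither was tested there. In stem cells the differences of Pmaip1 from ES were 0.29 at 15 min and 0.57 at 4 h (adjusted p = 0.254). Of the other genes read, Birc6 fell by 1.15 in EDRE (adjusted p = 0.0375), a call lost without EDRE 2 and 3, in 11 of 18 fits with 1 array left out and with normexp background correction, where it was at 0.97. The second probe of Apaf1 was higher by 1.12 in EDRL (adjusted p = 0.00109), where its brightest probe did not pass. Among markers, Pou5f1 and Sox17 passed as lower in EDRE, but each was dim on 2 of the 3 EDRE arrays, so no size is given, and neither passed without EDRE 2 and 3.

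Whether the response to radiation differed between the cell types was tested as an interaction, the ES-derived difference minus the ED-derived one. At 15 min 0 of 9 members passed by limma, against 1.98% of 28098 probes. At an unadjusted p under 0.05 there were 0 by limma, against 18.7% of probes, and 3 by the unmoderated contrast of the methods' t-test, against 19.8%, with 0 members after adjustment. The probes that passed were 228 higher and 327 lower. They were 185 and 517 with each array set to its median (a shift of the median from −0.22 to −0.36) and 237 and 174 with quantile normalization. With normexp background correction they were 17 and 41. The split was 48 and 91 without ES replicate 2, and 1569 and 4890 without EDRE replicate 1. Bcl2 was at −0.62 (95% interval −1.40 to 0.15), Mcl1 at 0.48 (−0.16 to 1.12) and Bok at −0.59 (−1.71 to 0.54).

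At 4 h 0 of 9 members passed by limma, against 1.07% of 28375 probes, with 1 member, Bad, at an unadjusted p under 0.05 (15.2% of probes), 1 by the unmoderated contrast (20.5%) and 0 after adjustment. The 64 probes higher and 240 lower became 79 and 153 with each array set to its median, which moved the median from −0.15 to 0.02, and 127 and 148 with quantile normalization. Bad was at −1.63 (SE 0.63, adjusted p = 0.238), and without ESRL replicate 2 at −2.26 (adjusted p = 0.0125). For the brightest probe of each other member tested the interval of the interaction took in 0. The second probe of Bcl2 was at 0.66 (95% interval 0.03 to 1.29), which did not pass (adjusted p = 0.304).

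Between 15 min and 4 h after 10 Gy, ESRL against ESRE, 0 of 10 members passed by limma, against 4.8% of 24935 probes, with 2 at an unadjusted p under 0.05 (21.3% of probes) and 1 by the methods' t-test (13.1%), 0 after adjustment. With each array set to its median there were 5 by limma at an unadjusted p under 0.05, against 23.8% of probes. The split of 168 higher and 1030 lower was 333 and 696 with each array set to its median, where the median went from −0.06 to 0.17, and 236 and 501 with quantile normalization. The members at an unadjusted p under 0.05 were Bad, at −1.15 (adjusted p = 0.145), and Bik, at 0.59 (adjusted p = 0.17). On slide 4, which held 2 arrays of each group, Bad differed by −0.48 and Bik by 0.24. Without ESRL replicate 2 Bad fell by 1.78 (adjusted p = 0.00329). Vdac1, a channel of the outer membrane that BCL2 proteins bind, fell by 1.15, a call lost in 8 of 13 alternatives, among them both other scalings, and in 12 of 18 fits with 1 array left out.

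In the non-stem cells, EDRL against EDRE, 0 of 9 members passed by limma, against 7.42% of 24167 probes, with 2 at an unadjusted p under 0.05 (28.5% of probes) and 1 by the methods' t-test (15.5%), 0 after adjustment. The probes that passed, 907 higher and 886 lower, were 1137 and 576 with quantile normalization and 856 and 1051 with each array set to its median, where the median went from −0.10 to −0.21. With normexp background correction they were 187 and 1807, and by the methods' t-test 4 and 0. The split was 2353 and 3847 without EDRE replicate 1. Bcl2 differed by −0.65 (adjusted p = 0.153) and Bcl2l11 by 0.51 (adjusted p = 0.0851), each resting on EDRE replicate 1, which lay on slide 3 with the EDRL arrays. Bak1 differed by 1.61 (adjusted p = 0.194) over all arrays, by 0.14 within slide 3 and by 3.08 (adjusted p = 5.83e-05) without EDRE replicate 1. Bik was not tested there, since it was dim on 2 arrays of each group. The other probes of Bcl2l11 differed by 0.64 and 0.28 in this comparison.

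No slide held an irradiated group together with its unirradiated control, so radiation and slide cannot be told apart in the comparisons with ES and ED. With slide as a random block in limma, 0 members passed in each of the 8 comparisons that involve irradiated cells, with 1 member at an unadjusted p under 0.05 in ESRL against ESRE (20.4% of probes), 2 in EDRL against EDRE (17.0%) and 0 in the others (0.732% to 4.26%). Under that block few probes of the whole array passed against unirradiated cells, 0 in ESRE and ESRL, 1 in EDRE and 36 in EDRL, and 0 in both interactions, so the members' count there does not set the family apart. In ESRL against ESRE 170 probes were higher and 947 lower, and in EDRL against EDRE 576 and 122.

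In the order of the 6 group means, 8 of the 9 members with a mean in every group had the groups of each cell type together, against 58.2% of 27890 probes tested in ED against ES. Bcl2, Bcl2l2, Bok, Bid and Bad had their 3 highest group means in ED, EDRE and EDRL, and Mcl1, Bik and Bcl2l11 in ES, ESRE and ESRL. For Bcl2l1 the cell types were mixed and neighbouring groups overlapped throughout, from 3.37 in ES to 3.83 in EDRL. Bak1, without usable ES values, also had the cell types mixed, from 1.04 in EDRE to 2.65 in EDRL.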

How the data were processed

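RNA of 18 samples was measured on Agilent 1-colour arrays. The authors deposited scanner output with the processed intensity of each of 39448 spots, and a matrix of log2 values for 30133 probes, whose signals the authors floored at 5 and set near the array median. From the processed intensity, 1417 control spots and 200 negative spots were removed, spots marked as outliers were left out and replicate spots averaged to 37246 probes, scaled to the array's 75th percentile as log2. RefSeq named 22216 probes. Probes that each of the 3 arrays in 1 or more of the groups compared showed well above background were tested in limma 3.58.1 under R 4.3.3, with Benjamini-Hochberg adjusted p over all probes tested and a log2 limit of 1, after the code was tested on simulated data. Named genes were the members and genes of lists written by name. Members and lists were chosen with earlier results of these data known. The 14 alternatives changed the background correction, scaling, filters, blocks, test, fold limit, arrays, probe summary or source of values, and each of the 18 arrays was also left out in turn. Normexp background correction was run on the median spot and background signals with an offset of 50, and not on the processed intensity.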

Additional observations from a re-analysis of the deposited data

Results flagged for a closer look

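The response to radiation of Pmaip1 at 15 min differed between stem and non-stem cells by the interaction in limma, by −1.76 (SE 0.36, adjusted p = 0.0326), which 5 of 13 alternatives and 10 of 17 fits with 1 array left out kept. Pmaip1 was dim on all 3 ED arrays and on 2 of the 3 EDRE arrays, so this difference rests in part on values not above background and its size is not measured. Pou5f1 differed in the same test by 2.30 (SE 0.40, adjusted p = 0.0128), kept in 8 of 13 and 18 of 18, with 1 of its 3 EDRE arrays well above background, so the size is not measured here either. Esrrb differed there by 1.46 (SE 0.27, adjusted p = 0.017), kept in 10 of 13 and 15 of 18. Between 15 min and 4 h, Vdac1 fell by 1.15 in stem cells (SE 0.28, adjusted p = 0.0334), kept in 5 of 13 and 6 of 18. Over the same interval in non-stem cells, Pou5f1 differed by 1.58 (SE 0.28, adjusted p = 0.00402), kept in 7 of 13 and 18 of 18, and by 0.83 without EDRE replicates 2 and 3. This size too rests on dim EDRE arrays and is not measured. Pax6 fell by 1.39 in that comparison (SE 0.39, adjusted p = 0.0366), kept in 8 of 13 and 9 of 18. It was dim on 1 EDRE array, ran from −1.97 to −0.81 with 1 array left out, and did not pass without EDRE replicates 2 and 3. With slide as a random block, Pou5f1 and Pax6 did not pass in this comparison. Under that block Pmaip1, Pou5f1 and Esrrb did not pass in the interaction at 15 min either. For Vdac1, Pou5f1 and Pax6 between 15 min and 4 h, the change was not tested against the other cell type. None of the 10 members was among these results.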

How the results depend on the processing

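The 6 members that passed in ED against ES numbered 6 under every alternative except quantile normalization (7, with Bad) and no fold limit (7, with Bid), and in all 18 fits with 1 array left out, with the direction split and names under the array median and the deposited matrix as given for that comparison (Mcl1 and Bcl2l11 replaced by Bid and Bad). For the comparisons with 0 members, the count became 1 in EDRE against ED with normexp background correction (Bad, 1.34, adjusted p = 0.0355) and with outlier spots kept (Bak1, −1.81), and 1 in EDRL against EDRE with outlier spots kept (Bak1, 2.06, adjusted p = 0.0166). The cause of these changes was not tested. With 1 array left out, the count ranged from 0 to 1 in EDRE against ED and in EDRL against EDRE (Bak1 at −2.88 and 3.08 without EDRE replicate 1, when 3 and 2 members were tested), and from 0 to 1 in ESRL against ES, in the interaction at 4 h and in ESRL against ESRE (Bad at −1.91, −2.26 and −1.78 without ESRL replicate 2).

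In EDRE against ED, the alternative with normexp background correction reversed Birc6 to 0.97 and Sox17 to 0.48 (neither passed). It moved the median of all probes from 0.03 to 0.59. This alternative also replaced the processed intensity by median signals and added an offset of 50, and the part of each was not tested.

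Replicate numbers were not taken as pairs, since the methods state no pairing. Same-numbered arrays of the groups compared did not all deviate together, but with 3 arrays per group this cannot exclude pairing. With a replicate block the count of members was 6 in ED against ES and 0 in the other comparisons. Fbxw7 in ED against ES, Bax in EDRE against ED and Pmaip1 in the interaction at 15 min no longer passed under it. Low signal over background limits Bad and Bik.

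For the listed genes outside the members, the alternatives were chosen after seeing the data. In ED against ES, Huwe1 (−0.86) and Usp9x (−0.99) came under the fold limit without ED replicate 1, and Fbxw7 lost its call in 6 of 18 fits with 1 array left out, those without an ED or an ES array. In ESRL against ES, Bcl2a1d and Diablo each lost theirs in 3 of 18, those without an ES array, Gata4 in 14 and Sox17 in 4. Of 13 other alternatives, Bcl2a1d lost its call in 4, Diablo in 6, Gata4 in 9 and Sox17 in 6, and the 4 genes share 4 of these: the slide block, normexp, the methods' t-test and the fit to the compared groups alone. In EDRE against ED, Bax lost its call in 7 of 13 and Pou5f1, Birc6 and Sox17 theirs in 6 of 13 (1 of these a reversal for Birc6 and Sox17), all 4 without EDRE replicates 2 and 3. With 1 array left out there, Bax lost its call in 15 of 18, Birc6 in 11, Sox17 in 1 and Pou5f1 in 0.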
